A study of Drosophila melanogaster with 8 samples.

Results

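The X chromosome regions described here carried a peak of N6-methyladenine (6mA) immunoprecipitation in ovaries that overexpressed Sam-S and none in control ovaries. They were chosen by merging all peaks of the 4 deposited genome lists that shared at least 1 bp, and by keeping the X regions with a peak from at least 1 Sam-S list and from no control list. This gave 1039 of the 2059 X regions, and of 7001 regions in all. Of these, 271 had a peak in both Sam-S lists, 228 in Sam-S 1 only and 540 in Sam-S 2 only. The presence or absence of a peak chose the regions, so these counts and the heights of the peaks are a description and carry no test.

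The ovaries came from Drosophila melanogaster of a control genotype and of a genotype named Sam-S_OE, in which a UASp-Sam-S transgene was driven by nanos-gal4. That driver is active in germline cells, whereas the DNA was taken from whole ovaries, which also hold somatic follicle cells. The labels do not say whether the control flies carried the driver or the transgene alone, and they give no age. Each genotype had 2 immunoprecipitated libraries, replicate 1 and replicate 2, each with an input library of its own. The libraries of replicate 1 are called batch 1 here and those of replicate 2 batch 2. Nothing in the labels says whether the replicates came from separate flies. The design sets ovaries with added Sam-S against control ovaries to see where 6mA peaks differ.

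Sam-S makes S-adenosylmethionine, the methyl donor of most methylation reactions in the cell. 6mA is best known as a mark of bacterial DNA, and an antibody against it pulls down DNA fragments, so a peak marks a stretch with more fragments than the input and not a single modified base. Female flies carry as many copies of the X as of each large autosome, and the X-specific upregulation of dosage compensation takes place in males.

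The 4 libraries differed in how much was called, and the lists are the only source of values. Immunoprecipitated libraries held between 39591292 and 49800736 tags and inputs between 39571865 and 52344880, by the headers of the peak caller. The X held 1025 control 1 peaks and 215 control 2 peaks, against 1297 from the Sam-S 1 list and 1654 from the Sam-S 2 list. Control 2 stood apart with a list of 683 peaks, against 3433 in control 1, although it held the most tags. A library without a peak at a region has no deposited value there, so the control signal at the members is not known beyond the absence of a call.

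Over the X, 50.5% of the regions had a Sam-S peak and no control peak, and 13.2% had this in both Sam-S lists. On 2L, 2R, 3L and 3R the same shares were 53% and 12.2%, so the X was close to the other arms in both. The opposite pattern, a control peak and no Sam-S peak, was found at 113 X regions (5.49%), of which 111 were in control 1 only, 2 in control 2 only and 0 in both. On the autosomal arms the opposite pattern made up 4.79%, and 0.0225% had peaks in both control lists only. The X regions with a control peak numbered 1020, of which 907 also had a Sam-S peak.

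**Figure D1:**
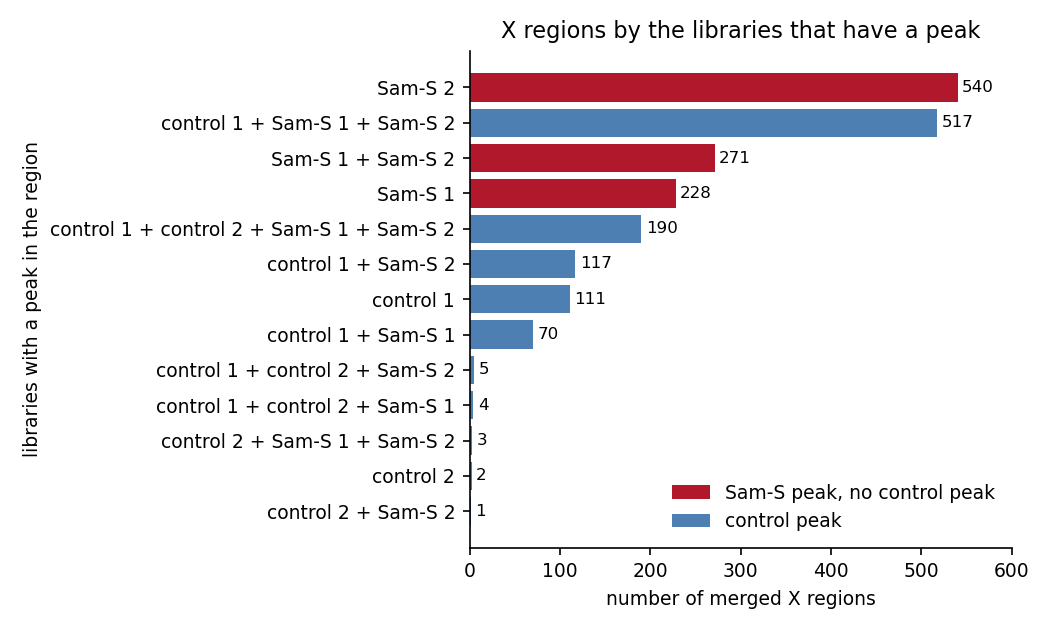
Number of merged X regions (horizontal axis) for each combination of libraries that had a peak there (vertical axis), with regions absent from both control lists in red and all others in blue. The largest class, 540 regions, had a peak in Sam-S 2 alone, and 271 were called in Sam-S 1 and Sam-S 2 without any control call.

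The number of such regions depended on the length of the lists. With every list cut to its top 683 peaks by significance, the length of the control 2 list, 110 X regions had a Sam-S peak and no control peak and 107 had a control peak and no Sam-S peak. Under that limit 22 X regions had peaks in both Sam-S lists only and 12 in both control lists only. Lists of equal length limit how far the 110 and the 107 can differ, so their closeness does not compare the genotypes. When only the Sam-S lists were shortened, to the 3433 peaks of control 1, the counts were 599 with a Sam-S peak only, 210 with a control peak only and 157 in both Sam-S lists only. This second limit was chosen after the data were seen. Leaving out control 2 changed the count for both Sam-S lists from 271 to 274, and leaving out control 1 raised it to 789, so the call of absence rested almost wholly on control 1.

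The batches allow a choice to be made in one batch and looked up in the other, with libraries that took no part in that choice. The members were chosen with all 4 lists, so the look-up is no independent support for them. The 271 regions of both Sam-S lists only are part of the 274 counted below. In batch 1, 502 X regions had a peak in Sam-S 1 and none in control 1, beside 781 with a peak in both. Of these 502, 274 (54.6%, 95% Wilson interval 50.2 to 58.9%) had a peak in Sam-S 2 and 3 (0.598%, 0.203 to 1.74%) had one in control 2. The mirror set of 233 X regions with a peak in control 1 and none in Sam-S 1 was found in Sam-S 2 at 122 (52.4%, 46.0 to 58.7%) and in control 2 at 5 (2.15%, 0.920 to 4.92%). The counting intervals of the shares found in Sam-S 2 overlapped. They cover counting error over regions only, and regions of a library are not replicates, so no difference between the sets was judged. On the autosomal arms the corresponding shares in Sam-S 2 were 46.0% of 1191 regions and 52.3% of 442. This look-up was chosen after the data were seen.

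The share found again was highest for peaks of high fold enrichment, the ratio of the pileup to the local input background that the authors' caller computed. Of the regions in Sam-S 1 and not control 1, 42.2% were found in Sam-S 2 when the Sam-S 1 fold was below 1.6, 41.7% from 1.6 to 1.8, 59.6% from 1.8 to 2 and 75.7% at 2 or more. For the regions in control 1 and not Sam-S 1 these shares were 34.0%, 54.1%, 56.7% and 71.4%. The order of the sets changed with the cutoff: with only peaks of a fold of at least 2 in every list, the share was 61.9% of 239 regions for Sam-S 1 and 70.1% of 67 for control 1. With Sam-S lists as long as that of control 1 it was 45.8% of 343 and 32.6% of 304.

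**Figure D2:**
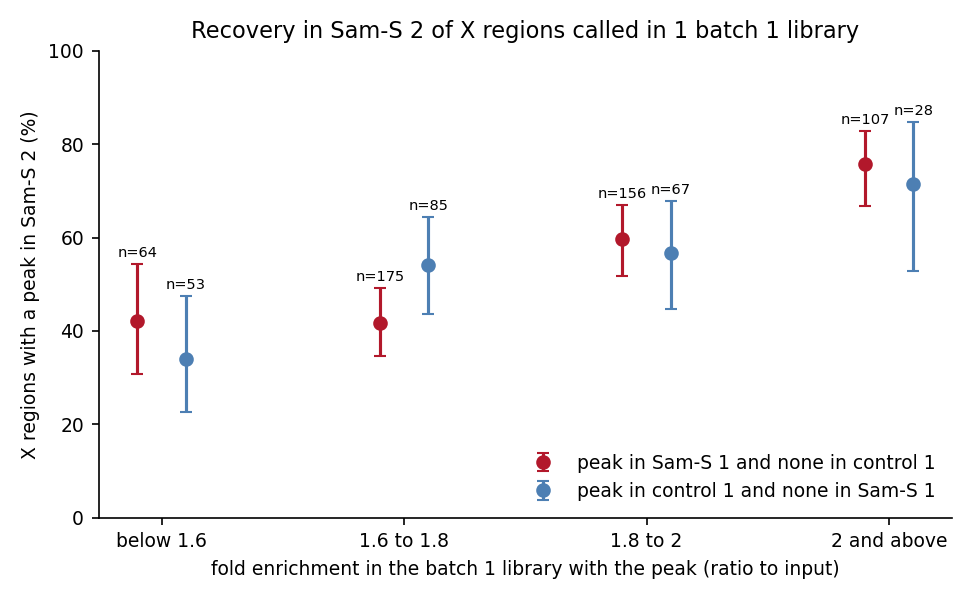
Share of X regions with a peak in Sam-S 2 (vertical axis, percent) by the fold enrichment in the batch 1 library that had the peak (horizontal axis), with 95% Wilson intervals and the number of regions above each point. Both sets are highest in the top class, at 75.7% for regions of Sam-S 1 absent from control 1 and 71.4% for regions of control 1 absent from Sam-S 1, with overlapping intervals.

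Chosen in batch 2, 1445 X regions had a peak in Sam-S 2 and none in control 2, and 6 the reverse. Of the 1445, 788 (54.5%, 52.0 to 57.1%) had a peak in Sam-S 1 and 634 (43.9%, 41.3 to 46.4%) had one in control 1. The batch 1 libraries thus held peaks at many regions that batch 2 alone would assign to Sam-S, in either genotype. No test was made, because the regions of 1 library are not replicates and 2 libraries stood on each side.

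The members were weak to moderate peaks. In the 271 regions of both lists the median fold was 1.89 in Sam-S 1 and 1.96 in Sam-S 2, a mean of 1.93 ± 0.0484 (SD, n = 2). The median was 1.75 in the regions of Sam-S 1 only and 1.88 in those of Sam-S 2 only, beside 1.69 in the 111 regions of control 1 only. X regions with a peak in all 4 lists had a Sam-S 1 median of 2.48 and a Sam-S 2 median of 2.53, and the 517 with a peak in control 1 and both Sam-S lists had 2.08 and 2.21. The member medians therefore lay below those of both classes of shared regions in either Sam-S library, with wide overlap of the ranges. Both classes need a peak in both Sam-S lists, which the members of a single list lack. Over all X regions with control and Sam-S peaks, the medians were 2.12 in Sam-S 1 and 2.23 in Sam-S 2. In the both-list set the folds ran from 1.38 to 2.80 in Sam-S 1 and from 1.36 to 2.98 in Sam-S 2, and 61 of the 271 regions reached a fold of 2 in each library.

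The members of a single list were about as long as the regions of control 1 only. The median length of members was 272 bp in the both-list set, 221 bp in Sam-S 1 only and 228 bp in Sam-S 2 only, beside 227 bp for regions of control 1 only, 322 bp for regions of control 1 and both Sam-S lists and 450.5 bp for regions with a peak in all 4 lists. A merged region can only grow with the number of lists that contribute to it. Together the 1039 members covered 271 kb, of which the both-list set covered 82.6 kb.

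Where both Sam-S libraries had a peak in a region, the summits lay at nearly the same position. The distance between the Sam-S 1 and Sam-S 2 summits, which the choice of regions did not use beyond the overlap, had a median of 18 bp in the 271 both-list regions and was at most 50 bp in 82.7% of them. It was 16 bp and 83.6% in the regions that control 1 shared, and 15.5 bp and 81.6% in the regions of all 4 lists. At 188 of 271 regions Sam-S 2 had the higher fold (69.4%), with a median difference of 0.108. Across the 271 regions the folds of the libraries went together with a Pearson r of 0.58 and a Spearman rho of 0.55. These regions share the cutoff of their lists, and each library has its own input.

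**Figure D3:**
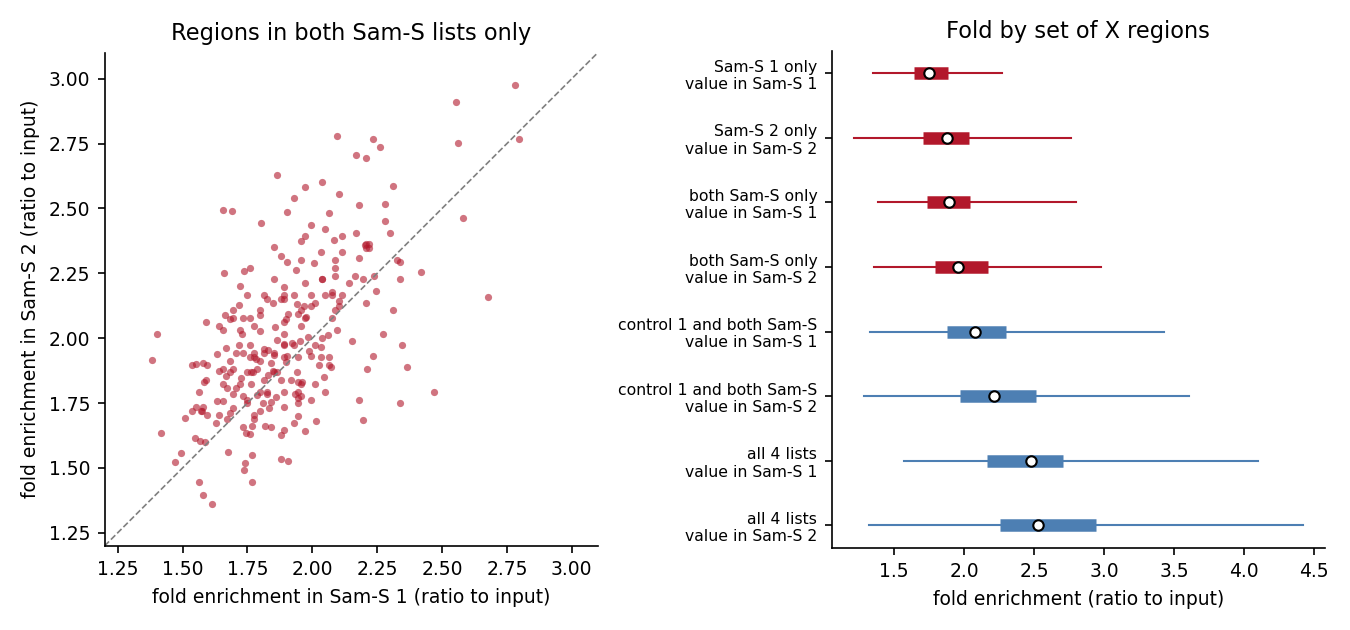
Left, fold enrichment over input in Sam-S 1 (horizontal axis) and Sam-S 2 (vertical axis) at the 271 X regions of both Sam-S lists only, each point a region and the dashed line equality. Right, the range (thin line), middle quartiles (thick line) and median (circle) of the fold by set of X regions, where the sets absent from control, in red, have medians from 1.75 to 1.96 and the sets shared with control, in blue, from 2.08 to 2.53.

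Where the background was at the floor that the caller takes from the whole library, the weakest peak called on the arms had a fold of 1.42 for control 1 and 1.52 for control 2, and of 1.45 for either Sam-S library. The members just inside the choice were X 5246373 to 5246596, with a fold of 1.34 and −log10 q of 1.33 in Sam-S 2, and X 23206189 to 23206476, with 1.24 and 1.41. Just outside lay X 8502599 to 8503018, where control 1 had a fold of 1.29 and −log10 q of 1.37 and Sam-S 2 had 1.38 and 2.69. Of the 907 regions shared by the genotypes, 14 had no control peak above a −log10 q of 3.

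The strongest region of both Sam-S lists was X 9118596 to 9118882, outside any gene, where the Sam-S 1 fold was 2.78, the Sam-S 2 fold was 2.98 and there was no peak in control 1 or control 2. Its pileup, the height of stacked extended tags at the summit, was 216 and 243.01, over backgrounds of 76.99 and 81.0. The nearest region with a control peak was 10.1 kb away. Next came X 12649117 to 12649433 in Tomosyn, which encodes a syntaxin-binding protein that restrains neurotransmitter release, with folds of 2.80 and 2.77. A control region lay 0.436 kb from it. In Neto, which encodes an auxiliary protein of glutamate receptors at the neuromuscular junction, X 13517942 to 13518314 had folds of 2.56 and 2.75.

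The gene kirre, an immunoglobulin-family adhesion protein of muscle founder cells, held 2 of the 10 strongest. X 2838887 to 2839435 had folds of 2.55 and 2.91 and lay 0.63 kb from a control region, and X 2806933 to 2807362 had 2.31 and 2.59 and lay 32.7 kb from one. With the strongest region, the Tomosyn, Neto and first kirre regions were the 4 that reached a fold of 2.5 in both libraries. The other regions of the 10 were lower in at least 1 library. X 5953755 to 5954022 in CG6048 had folds of 2.58 and 2.46. X 11521317 to 11521602 in Drak, a kinase related to death-associated protein kinases, had 2.23 and 2.77. X 22019355 to 22019667, outside any gene and 68.6 kb from a control region, had 2.26 and 2.74.

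X 1993942 to 1994196 in Hr4, a nuclear hormone receptor of the ecdysone response, had folds of 2.21 and 2.69 but lay 0.294 kb from a control region. X 4077924 to 4078227 in CG43689 had 2.097 and 2.78. Of the 10, 8 were higher in Sam-S 2 and 2, those in Tomosyn and CG6048, were higher in Sam-S 1. Among the regions of a single list, the highest in Sam-S 1 were X 7222379 to 7222608 in Cph and the overlapping lncRNA:CR44357 with a fold of 2.27, X 19104080 to 19104310 outside any gene with 2.21, and X 16475706 to 16475991 in para, the voltage-gated sodium channel, with 2.21. In Sam-S 2 they were X 3171817 to 3172066 in N, the Notch receptor, with 2.77, X 10293277 to 10293537 in alpha-Man-Ia with 2.71 and X 1992289 to 1992585 in Hr4 with 2.63.

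Of the 1039 members, 81.4% (78.9 to 83.7%) had their midpoint in a gene. The share was 82.3% (77.3 to 86.4%) in the both-list set and 83.9% (81.5 to 86.0%) in X regions with a control peak, with overlapping counting intervals. After moving all member midpoints it was 82.0% at -5 kb, 80.6% at -10 kb and 79.4% at -20 kb, and 79.7%, 77.8% and 76.6% at 5, 10 and 20 kb. By any overlap, 185 members touched no gene, 730 touched 1 and 124 touched more, among 2705 X genes in the table.

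Members lay in 433 X genes, and 226 of these also held a region with a control peak while 207 did not. The both-list set lay in 182 genes. Genes with a member were long, with a median of 14.3 kb against 2.06 kb for all X genes and 16.9 kb for genes that held a region with a control peak. Of the protein-coding X genes under 5 kb, 4.06% overlapped a member, and of those of 50 kb or more 94.2% did. For members of both lists these shares were 1.74% and 72.5%.

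**Figure D4:**
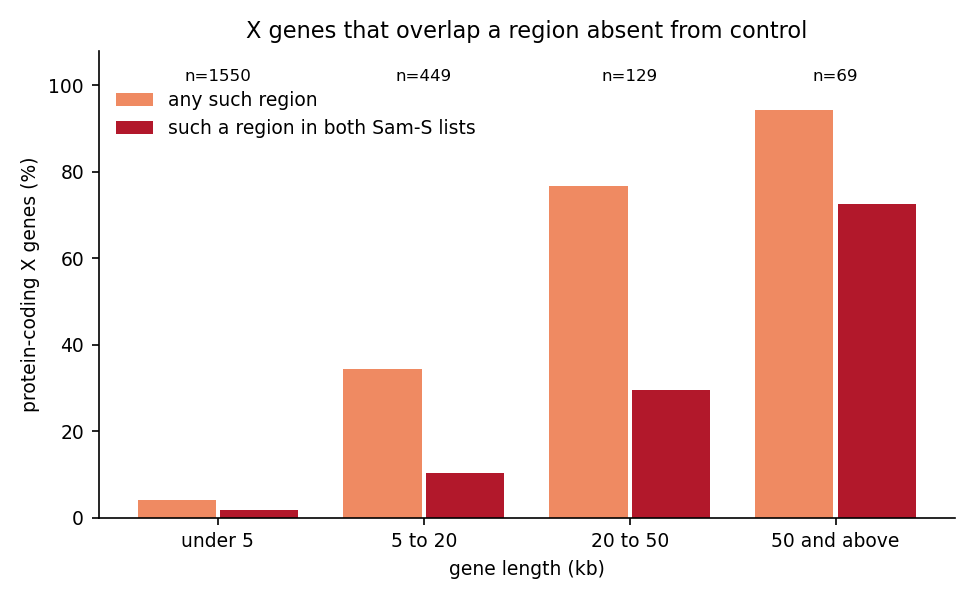
Share of protein-coding X genes (vertical axis, percent) that overlap a region absent from control, by gene length in kb (horizontal axis), for any such region and for those in both Sam-S lists, with the number of genes above each class. The share with any such region climbs from 4.06% of genes under 5 kb to 94.2% of genes of 50 kb or more.

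The genes with the most members were chosen by that count, and 9 of them, tied at the last place, held 109 of the 1039 members (10.5%). Mur2B, a mucin-related gene, held 25 and the gene br, which lies across it, held 22, all of them shared with Mur2B. The br gene encodes the Broad zinc finger factors of the early ecdysone response. Of its 22 members, 13 were in both Sam-S lists, with folds from 1.47 to 2.28 in Sam-S 1 and from 1.52 to 2.52 in Sam-S 2 over all its members. A further 9 regions in br had a control peak, all in control 1 and 5 also in control 2, with a median control 1 fold of 2.20. The gene kirre held 17 members, 10 of them in both lists, beside 10 control regions.

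In the other genes most members came from 1 list, as did 768 of all 1039 members. Ten-a, a teneurin that pairs synaptic partners, held 16 members, of which 2 were in both lists and 12 in Sam-S 2 only. The genes rg, an A-kinase anchor protein, and CG15465 have the same span in the table and shared 14 members, 3 of them in both lists. Ca-alpha1T, a T-type calcium channel, held 13 with 1 in both lists, and mamo, a BTB zinc finger factor of the female germline, held 12 with 3. Hr4 held 12 members with 4 in both lists and 5 in Sam-S 1 only. In each of these 9 genes there were between 6 and 16 regions with a control peak, and members made up between 50% (mamo) and 72.7% (Ten-a) of all regions, beside 50.5% over the X.

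**Figure D5:**
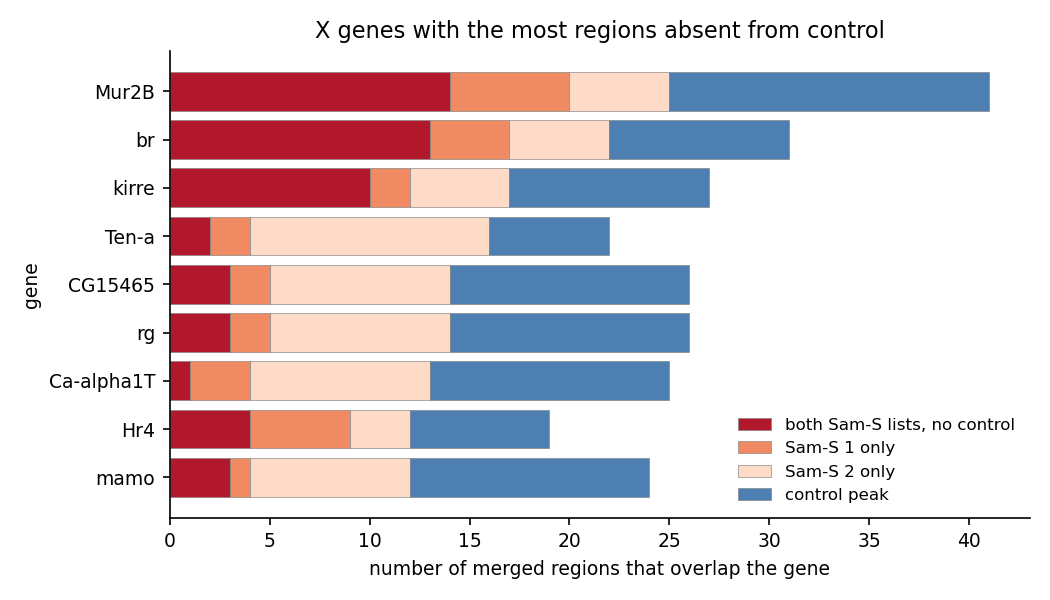
Number of merged regions (horizontal axis) that overlap each of the 9 X genes with the most regions absent from control (vertical axis), divided by the lists that hold a peak. Regions with a control peak, in blue, occur in all 9 genes, from 6 in Ten-a to 16 in Mur2B.

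Lists of X-linked genes, chosen with earlier results of these data known, were then looked up. Of 40 genes of neural excitability, synapse and adhesion, 31 (77.5%) overlapped a member, 18 overlapped one of both lists and 32 held a region with a control peak, while 16.0% of all X genes overlapped a member. These genes are long, with a median of 38.2 kb. By length, 0 of 3 list genes under 5 kb and 3 of 6 from 5 to 20 kb had a member, beside 4.06% and 34.3% of protein-coding X genes. Among protein-coding genes of 20 to 50 kb, 12 of 15 list genes and 76.7% of all had a member. Of those of 50 kb or more 16 of 16 and 94.2% did. The potassium channel Sh held 10 members beside 22 control regions, the phosphodiesterase dnc 7 beside 12 and para 5 beside 13. In the calcium channel cac, X 11960617 to 11960829 had folds of 2.09 and 2.30 in both lists. NetB, which encodes a secreted Netrin guidance cue, Nmdar2, a glutamate receptor subunit, and shi, the fly dynamin, each held 1 member, in Sam-S 2 only, and no control region. Their folds were 2.11, 1.54 and 1.64 in that order, and the Nmdar2 region also overlaps inc.

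Of 29 genes of oogenesis and the germline, 9 (31.0%) overlapped a member and 3 overlapped one of both lists, beside 16.0% and 6.73% of all X genes. Their median length was 4.57 kb, and by length 1 of 15 under 5 kb, 1 of 7 from 5 to 20 kb and 7 of 7 from 20 to 50 kb had a member, beside 4.06%, 34.3% and 76.7% of protein-coding X genes. The 3 genes with a region of both lists were sn, the actin-bundling fascin needed in nurse cells, dlg1, a cell polarity scaffold, and Moe, the membrane linker Moesin. In sn, X 7973306 to 7973536 had folds of 2.21 and 2.14. In dlg1, X 11371132 to 11371395 had 1.75 and 2.17, and in Moe, X 8881950 to 8882263 had 1.75 and 1.76. Single-list members lay in otu, a germline deubiquitinase, with 1.47 in Sam-S 1 over a high background of 185.87, in ovo, a germline zinc finger factor, with 2.02 in Sam-S 2, and in egh, a glycolipid mannosyltransferase, with 1.86 in Sam-S 2. The 4 members in N were all in Sam-S 2 only, with folds from 1.67 to 2.77, and 2 further regions in N had a control 1 peak. The other 20 genes of the list, among them fs(1)K10 and the yolk protein genes Yp1, Yp2 and Yp3, overlapped no member.

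Of 29 genes of transcription factors and chromatin, 12 (41.4%) overlapped a member and 7 one of both lists, beside the same 16.0% and 6.73% of all X genes. These genes had a median length of 8.97 kb, against 2.06 kb for all X genes. By length, 0 of 8 under 5 kb, 4 of 12 from 5 to 20 kb, 5 of 6 from 20 to 50 kb and 3 of 3 of 50 kb or more had a member. Of all protein-coding X genes in these classes, 4.06%, 34.3%, 76.7% and 94.2% did. The BET bromodomain gene fs(1)h held 7 members with 2 in both lists, at X 8040607 to 8040897 with folds of 1.85 and 2.23 and at X 8053252 to 8053709 with 1.90 and 1.91. The T-box gene bi held 4 members, 3 of them in both lists, beside 6 control regions. The gene sd, the TEAD factor of the Hippo pathway, held 5 members and 0 regions with a control peak. Of these 5, 1 was in both lists, at X 15821869 to 15822094 with folds of 2.03 and 1.93, and 3 were in Sam-S 1 only. Among 8 genes of dosage compensation and sex determination, 2 (25%) overlapped a member and 0 overlapped one of both lists. Of all X genes, 16.0% and 6.73% did. The median length of these 8 genes was 3.48 kb. By length, 0 of 4 protein-coding genes of the list under 5 kb, 1 of 1 from 5 to 20 kb and 0 of 1 from 20 to 50 kb had a member. In lncRNA:roX1, a non-coding RNA of the dosage compensation complex, the member was in Sam-S 2 with a fold of 2.05. In run it was in Sam-S 1 with 1.83, while Sxl held 4 control regions and 0 members. Ahcy, which breaks down the product of S-adenosylmethionine-dependent methylation, overlapped neither kind of region.

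Members were spread along the X. In steps of 2 Mb they made up between 45.5% (4 to 6 Mb) and 55.3% (18 to 20 Mb) of the regions. The share of members that were in both lists ran from 19.2% (14 to 16 Mb) to 35.4% (0 to 2 Mb). Members lay a median of 6.32 kb from the nearest region with a control peak, and 139 of them (13.4%) lay within 1 kb of one. For the 113 regions with control peaks only, the nearest region with a Sam-S peak was a median of 2.94 kb away, among more numerous Sam-S regions.

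The stretches were chosen after their values were seen. Consecutive members with no control region between them formed 490 stretches, 226 of them of a single member. The longest held 13 members over 102 kb, X 9022852 to 9125280, across rdgA, a diacylglycerol kinase of photoreceptors, and AP-1gamma. It included the strongest region of all, and 3 of the 13 were in both lists. The next held 11 members over 256 kb, X 21831111 to 22087507, outside any gene, 8 of them in Sam-S 2 only. A stretch of 8 members over 42.1 kb in br and Mur2B, X 1598843 to 1640969, had 5 in both lists. The longest stretch of regions with a control peak held 12.

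A small class of members, also picked after the values were seen, lay on a high background. In Sam-S 2 only, 16 of 540 members (2.96%) had an input-derived background of at least 150 at the summit, and their folds had a median of 1.29. Of all X regions with a peak in control 2, 6 of 205 (2.93%) had such a background, with a median fold of 1.29. Of those with a peak in control 1, 8 of 1014 (0.789%) did, with a median fold of 1.47. These control sets include regions shared with other lists, so the shares are not of like sets. Of the 16, 10 lay beyond 22 Mb, at the centromeric end. In the both-list set such a background was found at 1 of 271 regions for Sam-S 2 and at 2 for Sam-S 1. Among the 228 regions of Sam-S 1 only it was found at 1, the region in otu. One stretch of 8 members, X 23190640 to 23282501, had 0 in both lists and 7 in Sam-S 2 only. In Sam-S 2 those 7 had a median background of 287 and a median fold of 1.28. The other 1 was in Sam-S 1 only, with a fold of 1.75. The stretch overlaps ribosomal RNA genes and pseudogenes, where 6 members had Sam-S 2 folds from 1.23 to 1.38. Ribosomal RNA genes occur in similar copies. How tags were placed among such copies was not tested, and the peaks there are uncertain.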

How the data were processed

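DNA from 4 immunoprecipitated libraries (2 per genotype) was analysed, and the 4 input libraries entered only through the authors' calls. Per the file headers, the authors called peaks with MACS 2.1.1.20160309 in each library against its own input (tags extended to 200 bp, 1 tag per position, q cutoff 0.05) and scaled the smaller data set up, which multiplied the pileup of control 2 by 1.05 and of Sam-S 2 by 1.20. Bowtie2 is named in the submitters' processing notes; the genome build is not given in the sources used here. Coordinates are 1-based, as deposited. The deposited lists give the pileup signal, the fold enrichment (a ratio) and −log10 of p and q, all the authors' own values per peak. Folds of different lists rest on different inputs.

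Peaks were merged with Python 3.11.15 (pandas 2.3.3, scipy 1.17.1). The merging was tested on simulated lists of well separated regions only, so close or chained peaks were not tested. The background is (pileup + 1) / fold − 1. Genes came from a RefSeq table of assembly Release 6 plus ISO1 MT. The midpoints of all X regions lay in its genes at 82.7%, and at most at 81.3% after shifts of 5 to 20 kb. No sequence was used, so planned promoter and motif counts were not made. The transposon lists were not used.

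The regions named were the 10 strongest of both lists and 3 of each single list, the 8 genes with the most members (9 with ties) and listed genes. The members and gene lists were chosen with earlier results of these data known.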

Additional observations from a re-analysis of the deposited data

How the results depend on the processing

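Of the settings, only the length of the lists, the fold cutoff, the distance to a control peak and the libraries left out moved a result. No paired analysis was possible because no result comes from a test, with 1 library per genotype in each batch; the counts within each batch stand with the results. The number of X regions in both Sam-S lists only, 271, was 148 with folds of at least 2, 22 with equal numbers of peaks and 157 with Sam-S lists as long as control 1, and ran from 274 to 814 with 1 library left out, where without a Sam-S library it counts the remaining one. The number in one list only, 768, was 446, 88 and 442 in the same order, and ran from 769 to 955 without a control library; it has no value without a Sam-S library. The mean of the library medians of the fold, 1.93, was 2.23, 2.58 and 2.06, and ran from 1.82 to 2.06 with a library left out. The share of members in genes was 88.2% with equal numbers of peaks, over 110 members, and ran from 80.3 to 82.7% with a library left out. The share of X regions that are members, 50.5%, was 58.4%, 25% and 37.0%, was 43.7% with no control peak within 1 kb, and ran from 32.8 to 89.5% with a library left out, the highest being without control 1. The share of Sam-S 1 regions absent from control 1 that Sam-S 2 held, 54.6%, was 61.9%, 42.6% and 45.8%. The mirror share, 52.4%, was 70.1%, 33.3% and 32.6%; neither was recomputed with a library left out. The setting with Sam-S lists as long as control 1 and these last shares were chosen after the data were seen.

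Of 67 values recomputed under an alternative, 39 stayed within the limits set (1.5 times for a count, the spread of the libraries for the fold, the counting interval for a share). These include the values for −log10 q of at least 2, an overlap of 50% of the shorter peak and merging within 500 bp. The lists hold only called peaks, so depth at the members in the control libraries was not analysed here.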
